A study of Mus musculus with 14 samples.

Results

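Promoter methylation of the Sox, Tbx, Gata and Klf transcription factor families was described in 6 clones of 4T1, a cell line from a mouse mammary carcinoma. Members were taken by gene name, as Sox, Tbx, Gata or Klf followed by a number, with 1 Gata gene not analysed here. The rule gave 56 promoters of 51 genes among the 21965 promoters of 20343 genes in the table: 20 promoters of 18 Sox genes, 15 promoters of 12 Tbx genes, 5 Gata promoters and 16 Klf promoters. Each clone had been grown from a single sorted 4T1 cell, and the 6 came from 23 clones assessed as a pool for entry into blood vessels. The intravasating clones, those that entered the vessels, were E and T, and the non-intravasating ones were I, K, L and P. No treatment separated the groups. A clone stands for the progeny of 1 cell, so a group of 2 or 4 clones samples few cells of the line. A methylation level is the methylated share of cytosines over a promoter, from 0 to 1, measured by bisulfite sequencing. The table gives 1 level per clone, although 2 libraries were made from each, and the read depth behind a level is unknown.

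These families hold many of the factors that set cell identity in the embryo. Sox proteins bind DNA through an HMG box, Tbx proteins through a T-box, Gata proteins through zinc fingers that read the GATA motif, and Klf proteins through zinc fingers that read GC-rich boxes. In the mammary gland Sox9 and Sox10 are known from progenitor cells, Tbx3 is needed for the gland to form, and Klf4 and Klf5 are known from epithelia. A promoter rich in CpG, the dinucleotide that carries methylation in mammals, is usually free of methylation in normal tissue, and dense methylation of such a promoter goes with a silent gene.

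The clones were checked against promoters of cell type markers. The 5 epithelial markers measured had mean levels of 0.0856 (Cdh1, the E-cadherin gene) to 0.258 (Krt18, a keratin gene of simple epithelia). Cdh1 was higher in the intravasating clones by 0.0413 (limma unadjusted p = 0.0373). Cldn4, a claudin gene, was higher by 0.111 (limma unadjusted p = 0.0254). Both had a limma adjusted p of 1.00. Epcam also had a positive difference (0.0246), whereas Krt8 (-0.0559) and Krt18 (-0.0470) had negative ones. At Cldn4 clone E was at 0.256, but clone T, at 0.0880, lay below clone P at 0.105. The part of these markers in the results below was not tested. Marker promoters of the other lineages had higher levels for the most part. They ran from 0.241 to 0.790 for 5 leukocyte markers, from 0.0597 to 0.894 for 6 promoters of fibroblast markers and from 0.696 to 0.860 for 3 endothelial markers.

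Promoter sequences are shown for the gene with the lowest and the gene with the highest mean level of each family among those in the RefSeq window table (GRCm38.p6), because the families differ in how the ends of this scale look. The table held 37 of the 51 genes (72.5%). Each sequence is the 250 bases before a RefSeq transcript start, 5′ to 3′ on the gene's strand, and capitals mark every CG. The windows of Klf7, Klf15 and Gata5 lie inside the annotated gene, at a start downstream of its outer limit, and the other 5 end where the gene begins. The limits of the promoters in the deposited table were not stated, so a window need not match the measured region. Over all 32851 such windows the median number of CGs was 6, and 92.1% held at least 1.

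In the Sox family, Sox4, a SoxC factor of progenitor cells and tumours, had the lowest level and Sox2, a SoxB1 factor of pluripotent and neural stem cells, the highest.
Sox4 (chr13:28953700-28953949, minus strand, 11 CpGs): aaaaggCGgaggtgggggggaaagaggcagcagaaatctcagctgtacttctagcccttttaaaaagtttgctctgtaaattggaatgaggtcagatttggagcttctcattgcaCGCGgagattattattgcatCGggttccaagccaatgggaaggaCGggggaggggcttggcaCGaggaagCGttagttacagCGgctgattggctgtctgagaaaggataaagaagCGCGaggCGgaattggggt
Sox2 (chr3:34649745-34649994, plus strand, 27 CpGs): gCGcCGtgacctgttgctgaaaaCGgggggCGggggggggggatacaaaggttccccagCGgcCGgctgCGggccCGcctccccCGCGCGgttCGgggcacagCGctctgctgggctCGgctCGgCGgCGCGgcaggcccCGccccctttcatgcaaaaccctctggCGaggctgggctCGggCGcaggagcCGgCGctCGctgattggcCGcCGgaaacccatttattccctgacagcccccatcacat

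In the Klf family, Klf7, a broadly expressed factor of group 2, was the lowest in the window table and Klf15, a factor of metabolic tissues, the highest.
Klf7 (chr1:64121390-64121639, minus strand, 13 CpGs): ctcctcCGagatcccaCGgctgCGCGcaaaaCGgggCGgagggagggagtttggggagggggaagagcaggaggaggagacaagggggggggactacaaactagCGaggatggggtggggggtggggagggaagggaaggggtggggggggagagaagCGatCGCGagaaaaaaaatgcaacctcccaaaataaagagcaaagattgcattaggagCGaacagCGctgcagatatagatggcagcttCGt
Klf15 (chr6:90462326-90462575, plus strand, 37 CpGs): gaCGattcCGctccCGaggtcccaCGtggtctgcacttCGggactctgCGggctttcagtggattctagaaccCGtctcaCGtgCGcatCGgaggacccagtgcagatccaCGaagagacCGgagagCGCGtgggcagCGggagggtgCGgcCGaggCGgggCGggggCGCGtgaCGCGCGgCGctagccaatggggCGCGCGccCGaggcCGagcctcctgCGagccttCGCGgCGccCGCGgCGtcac

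In the Tbx family, Tbx10 and Tbx18 were the lowest and the highest of those in the window table. Tbx18 marks mesenchyme around developing organs.
Tbx10 (chr19:3992502-3992751, plus strand, 3 CpGs): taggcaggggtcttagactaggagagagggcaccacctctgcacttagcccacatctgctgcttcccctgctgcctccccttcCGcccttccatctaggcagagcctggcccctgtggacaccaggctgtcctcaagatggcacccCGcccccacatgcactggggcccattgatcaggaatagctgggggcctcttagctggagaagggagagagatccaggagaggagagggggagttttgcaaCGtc
Tbx18 (chr9:87731261-87731510, minus strand, 15 CpGs): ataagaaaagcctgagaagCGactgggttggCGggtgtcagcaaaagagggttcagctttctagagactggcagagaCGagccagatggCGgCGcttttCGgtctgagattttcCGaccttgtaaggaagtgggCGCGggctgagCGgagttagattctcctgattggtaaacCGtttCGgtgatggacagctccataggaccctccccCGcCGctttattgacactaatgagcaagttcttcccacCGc

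In the Gata family, Gata2, a factor of blood stem cells, was the lowest in the window table and Gata5, a factor of endoderm and heart, the highest of those shown. Gata2 had 2 windows, and the one at the gene's outer start is shown.
Gata2 (chr6:88193641-88193890, plus strand, 22 CpGs): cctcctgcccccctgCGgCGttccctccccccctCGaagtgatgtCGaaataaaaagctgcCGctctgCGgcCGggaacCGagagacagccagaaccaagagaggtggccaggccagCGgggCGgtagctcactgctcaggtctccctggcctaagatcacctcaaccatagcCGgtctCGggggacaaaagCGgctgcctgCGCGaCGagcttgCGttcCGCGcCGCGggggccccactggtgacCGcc
Gata5 (chr2:180334680-180334929, minus strand, 22 CpGs): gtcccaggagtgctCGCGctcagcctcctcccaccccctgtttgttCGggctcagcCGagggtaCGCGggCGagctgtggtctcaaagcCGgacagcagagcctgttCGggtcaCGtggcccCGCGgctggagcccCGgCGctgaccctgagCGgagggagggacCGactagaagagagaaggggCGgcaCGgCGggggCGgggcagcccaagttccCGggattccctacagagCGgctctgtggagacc

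Among the windows shown, those with the most CpGs belonged to methylated promoters, and the nearly unmethylated promoters had fewer. The Sox2 window, with 27 CpGs, belongs to a promoter at 0.939 ± 0.0133 (SD, n = 6 clones), and the Klf15 window, with 37, to one at 0.826 ± 0.0296. Klf7, with 13 CpGs, was at 0.00859 ± 0.00336 (SD, n = 6), and Sox4, with 11, at 0.0370 ± 0.00462. Each of these 4 windows held more CpGs than at least 64.4% of all windows. Gata2 and Gata5, with 22 CpGs each, were at 0.638 ± 0.0560 and 0.811 ± 0.0235 (SD, n = 6). Tbx18, with 15 CpGs, was at 0.928 ± 0.0236, and Tbx10, with 3 CpGs, at 0.522 ± 0.0553 (SD, n = 6). CpG content was not compared over the families as a whole: that check is void, since fewer than 80% of the genes had a window.

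As a group these promoters were more methylated than the table at large, except for the Klf family. The median of the mean levels was 0.692 for Sox, 0.718 for Tbx, 0.789 for Gata and 0.316 for Klf, against 0.328 over all 21965 promoters. For the developmental Hox and Fox factors it was 0.778 over 39 promoters and 0.696 over 45. With low meaning a mean under 0.2, high a mean over 0.8 and intermediate the rest, 10 of the 56 were low, 31 intermediate and 15 high. That is 26.8% high and 17.9% low, beside 14.5% and 38.6% over all promoters. These shares are a description, and the difference was not tested.

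**Figure D1:**
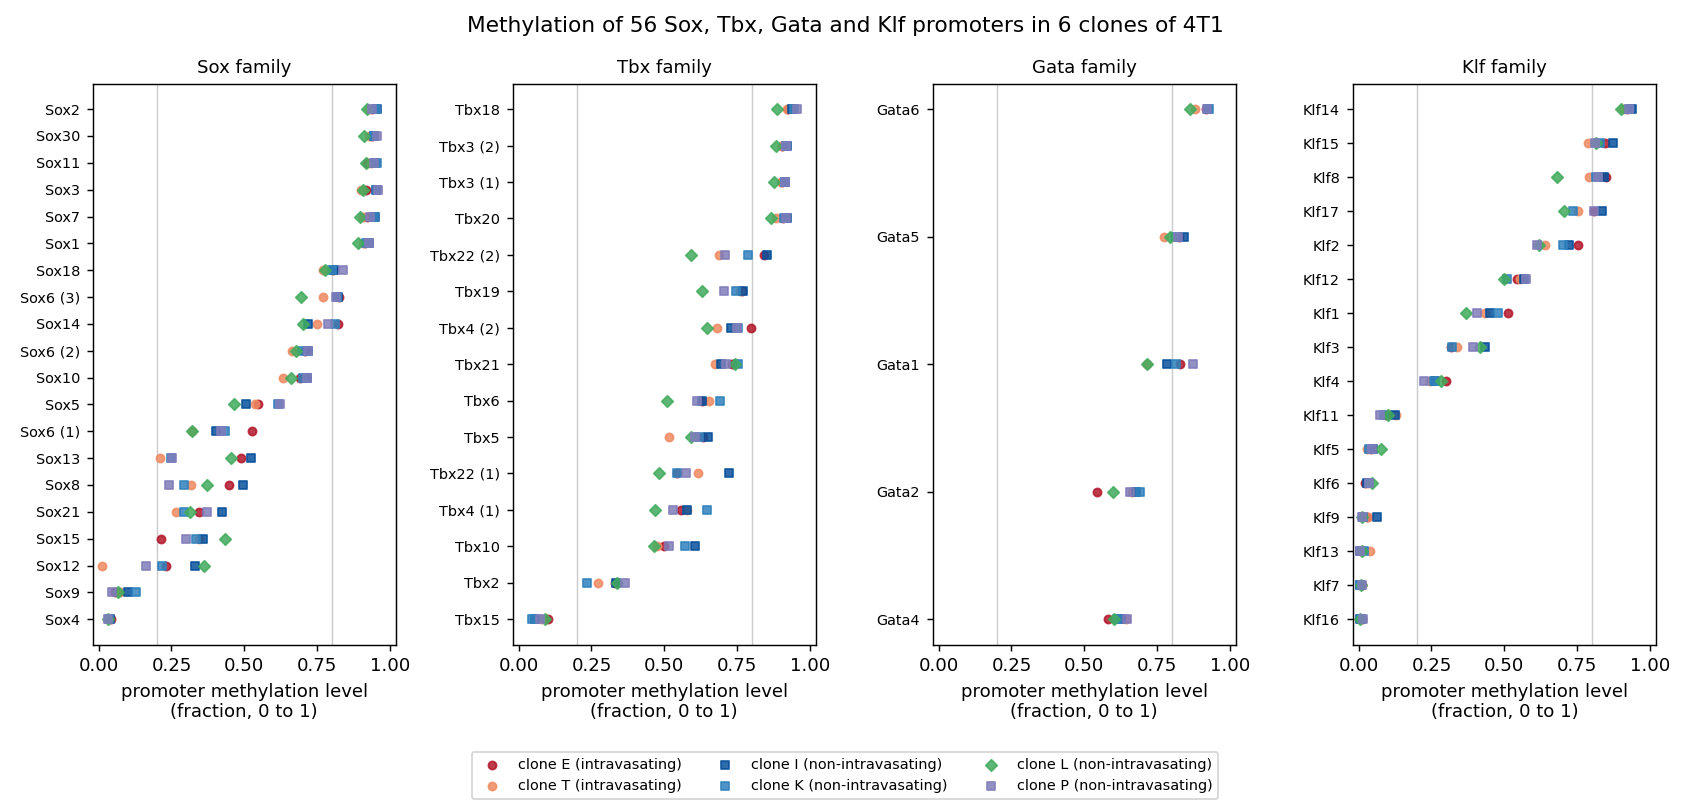
Methylation level (fraction, x axis) of each of the 56 promoters (rows, ordered by mean within each family) in the 6 clones (points, coloured by clone); grey lines mark 0.2 and 0.8, and a number in brackets tells promoters of one gene apart. The high promoters lie close together across clones, apart from Klf8 in clone L, Sox12 and Sox13 spread the most, and 7 Klf promoters gather at the low end.

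Among the Sox genes the 3 SoxB1 factors, which keep neural and pluripotent progenitors undifferentiated, were all highly methylated. Sox2 was at 0.940 in clone E, 0.930 in T, 0.957 in I, 0.951 in K, 0.921 in L and 0.937 in P. Clone L had the lowest of these and clone I the highest, and the intravasating clones lay between them. Sox1 and Sox3 had means of 0.915 and 0.933. The SoxF gene Sox7, an endothelial factor, was at 0.926, while Sox30, a testis factor and the single SoxH gene, was at 0.939 in E, 0.929 in T, 0.945 in I, 0.946 in K, 0.910 in L and 0.956 in P. The SoxB2 genes, repressors in the nervous system, were intermediate, with Sox14 at 0.766 and Sox21 at 0.336.

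The SoxC genes ran from the low to the high class, and the SoxE genes from low to intermediate. Of the SoxC genes, Sox4 was at 0.0438 in E, 0.0374 in T, 0.0398 in I, 0.0370 in K, 0.0311 in L and 0.0329 in P, so all 6 clones were nearly free of methylation. Sox11, a neural SoxC factor, was at 0.922 in E, 0.935 in T, 0.948 in I, 0.956 in K, 0.917 in L and 0.946 in P, so all 6 clones were near the top of the scale. Sox12, the remaining SoxC gene, had a mean of 0.220. Of the SoxE genes, Sox9 was low, at 0.0575 in E, 0.0736 in T, 0.103 in I, 0.130 in K, 0.0666 in L and 0.0448 in P. Sox8 had a mean of 0.361 and Sox10, the neural crest and myoepithelial factor, one of 0.686 ± 0.0334 (SD, n = 6). Among the SoxE genes the order Sox9, Sox8, Sox10 held in each of the 6 clones.

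The SoxD genes, which lack an activation domain of their own, were intermediate throughout. Sox5 was at 0.549, and Sox6, a cartilage and muscle factor, had 3 promoters in the table at 0.404, 0.698 and 0.791. Sox18, the SoxF factor of lymphatic vessels, lay at the border of the high class with a mean of 0.80. Sox15, the single SoxG gene, was at 0.332.

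In the Tbx family 4 of the 15 promoters were high and only that of Tbx15, a factor of skin patterning and muscle, was low. Tbx15 was at 0.101 in E, 0.0782 in T, 0.0572 in I, 0.0447 in K, 0.0921 in L and 0.0743 in P, and the groups overlapped. Its relatives in the Tbx1 subfamily were far higher: Tbx20, a heart factor, had a mean of 0.902, and Tbx18 was at 0.925 in E, 0.920 in T, 0.937 in I, 0.946 in K, 0.888 in L and 0.955 in P. All 6 clones were thus high at Tbx18, clone L the least. Tbx10 was at 0.50 in E, 0.475 in T, 0.604 in I, 0.573 in K, 0.465 in L and 0.515 in P. Tbx22, an X-linked palate gene, had promoters at 0.580 and 0.745.

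The Tbx2 subfamily lies as linked pairs, Tbx2 with Tbx4 on chromosome 11 and Tbx3 with Tbx5 on chromosome 5. Tbx3 was the high member of its pair. Its 2 promoters were at 0.904 ± 0.0143 and 0.907 ± 0.0141 (SD, n = 6). The first-listed was at 0.903 in E, 0.902 in T, 0.913 in I, 0.915 in K, 0.878 in L and 0.915 in P, with clone L lowest. The other was at 0.904 in E, 0.903 in T, 0.921 in I, 0.916 in K, 0.883 in L and 0.918 in P, nearly the same in each clone. Tbx5, a limb and heart factor, was at 0.603 ± 0.0477. In the other pair Tbx2, a repressor of senescence genes, was at 0.332 in E, 0.273 in T, 0.334 in I, 0.236 in K, 0.337 in L and 0.364 in P. Its clones did not reach those of Tbx4, a hindlimb and lung factor, whose promoters had means of 0.560 and 0.726. The T-box genes outside the Tbx2 and Tbx1 subfamilies were intermediate: Tbx6 (mesoderm) at 0.621, Tbx19 (pituitary) at 0.730 and Tbx21 (T helper cells) at 0.718.

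No Gata promoter was low. Gata6, a factor of endoderm and heart, was the highest, at 0.916 in E, 0.881 in T, 0.924 in I, 0.928 in K, 0.864 in L and 0.922 in P. Clones T and L were the lowest here. Gata5 was at 0.823 in E, 0.774 in T, 0.841 in I, 0.812 in K, 0.794 in L and 0.822 in P, again with T and L lowest. Gata4, also of endoderm and heart, had the lowest mean of the family and was at 0.580 in E, 0.642 in T, 0.628 in I, 0.612 in K, 0.603 in L and 0.648 in P. Gata1, the X-linked factor of red cells and platelets, was at 0.830 in E, 0.717 in T, 0.782 in I, 0.815 in K, 0.716 in L and 0.872 in P. Gata2 was at 0.544 in E, 0.665 in T, 0.676 in I, 0.690 in K, 0.598 in L and 0.657 in P, with clone E the lowest.

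The Klf family had the largest share of low promoters among the 4 families, at 43.8%, beside 38.6% over all promoters. The share was 10% for Sox and 6.67% for Tbx. Of 16, 7 were low: Klf16 (mean 0.00858), Klf7 (0.00859), Klf13 (0.0146), Klf9 (0.0271), Klf6 (0.0328), Klf5 (0.0466) and Klf11 (0.101). Of the 5 group 3 genes, which recruit the Sin3 corepressor, 4 were low, and Klf14, an imprinted gene, was the exception. Klf16 was at 0.0102 in E, 0.00900 in T, 0.00608 in I, 0.00750 in K, 0.00475 in L and 0.0140 in P, and Klf13 at 0.00939 in E, 0.0380 in T, 0.00622 in I, 0.0188 in K, 0.00985 in L and 0.00536 in P. Methylation was close to 0 in every clone at both. Klf14 was at 0.920 in E, 0.907 in T, 0.938 in I, 0.929 in K, 0.901 in L and 0.928 in P. Klf7 was at 0.0105 in E, 0.0127 in T, 0.00378 in I, 0.00590 in K, 0.00781 in L and 0.0109 in P. In group 2, mostly activators, Klf5, Klf6 and Klf7 were low, while Klf4, known as a reprogramming factor, was at 0.262, Klf1, the red cell factor, at 0.441 and Klf2, a factor of endothelium and T cells, at 0.674. Group 1, the CtBP-binding repressors, held no low promoter, with Klf3 at 0.37, Klf12 at 0.542 and Klf8 at 0.80. Klf15 was at 0.845 in E, 0.787 in T, 0.873 in I, 0.827 in K, 0.814 in L and 0.812 in P, and Klf17, a factor of the early embryo, had a mean of 0.773. Klf8 lies just inside the high class and Sox18 just outside it.

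Related genes outside these names had promoters over the same span. The Sp genes, the closest kin of Klf, had 10 promoters of which 5 were low (those of Sp1, Sp2, Sp3 and Sp4) and 3 high (Sp5, Sp8 and Sp9). The T-box genes that carry other names had means of 0.60 (Mga), 0.791 (Eomes), 0.838 (T) and 0.894 (Tbr1). Of the GATA cofactors, Zfpm1 was at 0.00943 and Zfpm2, its paralog, at 0.943. Lmo2, a bridging factor of blood cells, had 3 promoters between 0.283 and 0.421, its partner Ldb1 had promoters at 0.0206 and 0.174, and Tal1 was at 0.877. No promoter of these lists was called between the groups by limma at an adjusted p under 0.05.

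The comparison stated in the study design set the intravasating against the non-intravasating clones. None of the 56 promoters passed limma at a Benjamini-Hochberg adjusted p under 0.05 over all promoters, where 2 of 21965 did (0.00911%). None had an unadjusted p under 0.05 either, beside 3.93% of all promoters. In none did both intravasating clones lie above, or below, all 4 others, beside 11.2% of all promoters (4.31% higher and 6.89% lower in the intravasating clones). A gap of at least 0.1 between the groups was found at 0.127% of all promoters and at none of the 56. The family promoters had a median difference of -0.00748 (intravasating minus non-intravasating), beside -0.00424 over all promoters. The intravasating mean was the lower one for 34 of 56 (60.7%), beside 57.5% of all promoters. By family it was lower for 15 of 20 Sox, 9 of 15 Tbx, 5 of 5 Gata and 5 of 16 Klf promoters. These counts are a description. The absence of a call does not show that the groups were alike, since 2 clones were set against 4.

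Sox12 had the largest difference. Its promoter, on chromosome 2, was at 0.232 in E and 0.0134 in T, and at 0.331 in I, 0.219 in K, 0.362 in L and 0.162 in P. Clone T was nearly free of methylation, whereas clone E lay among the non-intravasating clones. The group means were 0.123 ± 0.155 (SD, n = 2) and 0.268 ± 0.0939 (SD, n = 4). The difference was -0.145 (SE 0.0713), with a limma unadjusted p of 0.0726 and an adjusted p of 1.00. Without clone T it was -0.0361, and without clone E, where clone T alone stood for its group, -0.255. The difference thus rested on clone T.

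In each other family the largest difference was smaller. Klf3, a repressor of group 1, was at 0.317 in E, 0.339 in T, 0.434 in I, 0.322 in K, 0.416 in L and 0.392 in P. Its intravasating clones stood low, but clone K stood between them. The difference was -0.0632 (SE 0.0503, limma adjusted p = 1.00). Tbx10 differed by -0.0518 (SE 0.0524) and Gata2 by -0.0505 (SE 0.0469), each with a limma adjusted p of 1.00. For Gata2 the sign turned without clone E, to 0.010.

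**Figure D2:**
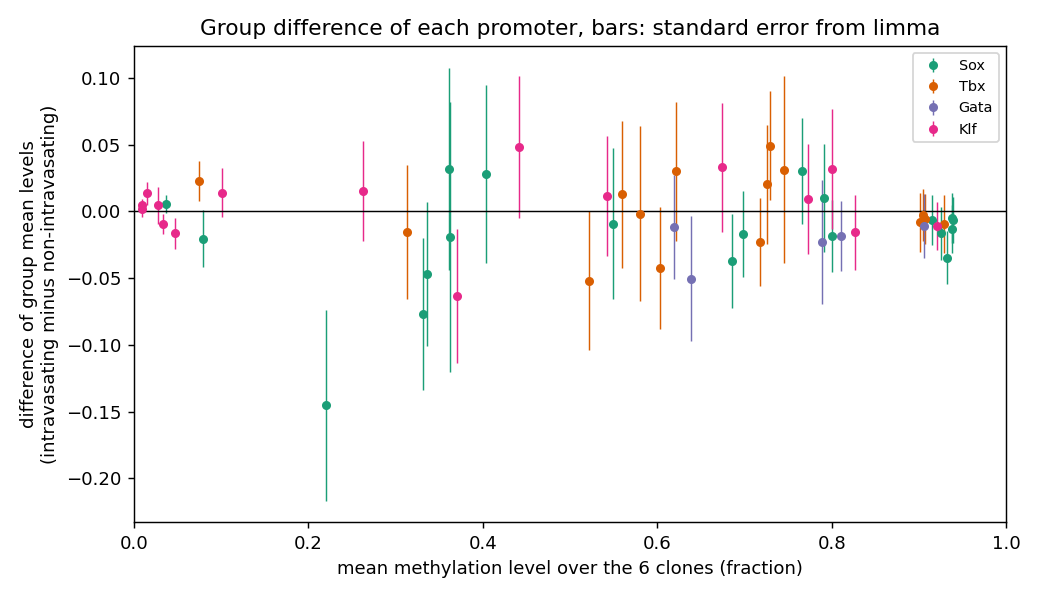
Difference of group mean levels (intravasating minus non-intravasating, y axis) against the mean level over the 6 clones (x axis) for the 56 promoters, coloured by family, with bars of 1 standard error from limma. Sox12 lies lowest at -0.145, and the promoters with high levels lie close to 0.

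Clones differed from one another at particular promoters in ways that did not split by group. A range over the 6 clones of at least 0.2 was seen for 7 of 56 promoters (12.5%), beside 10.6% of all promoters. They were those of Sox12, Sox13, Sox8, Sox15, the first-listed of Sox6 and both of Tbx22; no Gata or Klf promoter was among them. By family these were 5 of 20 Sox and 2 of 15 Tbx promoters.

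Sox13, a SoxD factor of lymphocytes and cartilage on chromosome 1, stood at separate levels. Clones E, I and L were at 0.487, 0.523 and 0.456, and clones T, K and P at 0.212, 0.247 and 0.250. No clone lay between 0.250 and 0.456, and each set held 1 intravasating clone. The group means were 0.350 ± 0.195 (SD, n = 2) and 0.369 ± 0.142 (SD, n = 4). A gap of at least 0.2 with 2 or more clones on each side was found at 56 of all 21965 promoters (0.255%). Sox13 was the only family promoter among them; this criterion was set after its values were seen.

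Sox12 and Sox8 had the same clones on top. Sox8, a SoxE factor of glia and testis on chromosome 17, was at 0.449 in E, 0.316 in T, 0.494 in I, 0.292 in K, 0.373 in L and 0.241 in P. The lowest of the upper clones and the highest of the lower ones were close at Sox8 (L at 0.373, T at 0.316) and closer still at Sox12 (E at 0.232, K at 0.219). Clones E, I and L lay above T, K and P at 4 of the 56 promoters (7.14%), those of Sox8, Sox12, Sox13 and Klf4, beside 4.57% of all promoters. This ordering too was looked for after the values were seen.

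The other variable promoters followed other clones. Sox15 was at 0.215 in E, 0.346 in T, 0.360 in I, 0.333 in K, 0.434 in L and 0.301 in P, with the intravasating clone E lowest. The first-listed Sox6 promoter was at 0.525 in E, 0.320 in T, 0.402 in I, 0.435 in K, 0.320 in L and 0.419 in P, with clone E highest. The first-listed Tbx22 promoter was at 0.542 in E, 0.615 in T, 0.721 in I, 0.543 in K, 0.483 in L and 0.574 in P. The other was at 0.844 in E, 0.689 in T, 0.852 in I, 0.787 in K, 0.591 in L and 0.709 in P. Clone I was the highest and clone L the lowest at both. Where 1 clone was compared with the median of its 5 fellows, a distance of 0.2 or more was seen at Sox12 and Sox13, beside 3.88% of all promoters. At Sox12 it was clone T alone, whereas at Sox13 all 6 clones were that far, since they stood at separate levels. Below the range of 0.2, Tbx6 was at 0.628 in E, 0.654 in T, 0.631 in I, 0.692 in K, 0.510 in L and 0.612 in P. Klf1 was at 0.513 in E, 0.433 in T, 0.449 in I, 0.477 in K, 0.369 in L and 0.405 in P, and Klf2 at 0.753 in E, 0.638 in T, 0.721 in I, 0.700 in K, 0.618 in L and 0.612 in P. Clone E was the highest at both Klf promoters.

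**Figure D3:**
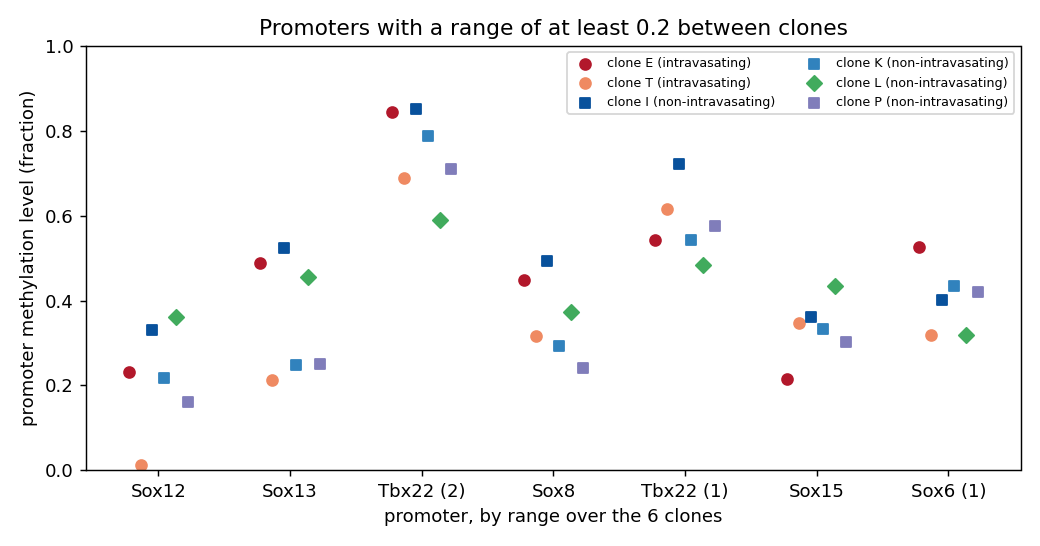
Methylation level (fraction, y axis) in each clone (points) for the 7 promoters with a range of at least 0.2, ordered by range; a number in brackets tells promoters of one gene apart. Clone T sits near 0 at Sox12, and at Sox13 clones E, I and L lie above 0.45 while T, K and P lie at 0.250 or lower.

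Clones L and T had lower levels at the intermediate and the highly methylated promoters. At the 31 intermediate promoters the median shift from the mean of the other 5 clones was -0.0508 for L and -0.0373 for T, each below at 23 of 31 (74.2%). Over all intermediate promoters it was -0.0490 for L (77.8% below) and -0.0296 for T (72.3% below). Clone L was below the mean of the other 5 clones at all 15 high promoters and was the lowest clone at 12 of them, with a median shift of -0.0294. Over all 3175 high promoters it was below at 89.6% and the lowest at 53.3%, with a median shift of -0.0316. Clone T was also below at all 15, by a median of -0.0117, beside -0.0212 and 83.1% below over all high promoters. At the 10 low promoters clone L was shifted by -0.00277. Clone L was the lowest clone at 29 of the 56 promoters (51.8%), Tbx first with 11 of 15, beside 36% over all promoters. In the intermediate class it was the lowest at 14 of 31 (45.2%), beside 43.5% of all intermediate promoters. In the low class it was the lowest at 3 of 10, beside 20.3% of all low promoters. At the 39 Hox promoters the share was 69.2%. Clone L is non-intravasating and clone T intravasating, so the shift did not follow the groups. The mean absolute difference between clones E and T over the 56 promoters was 0.0549, rank 10 of 15 pairs from the closest. The closest pair, K and P, differed by 0.0313. Over all promoters E and T had rank 8, at 0.0461, and K and P were again the closest pair, at 0.0392.

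**Figure D4:**
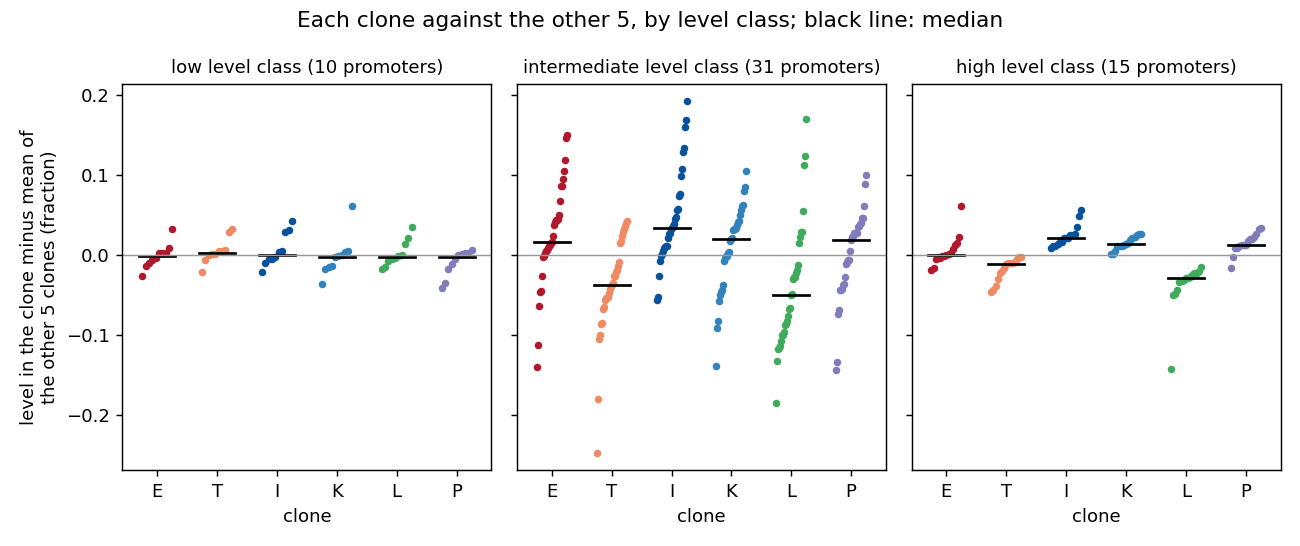
Level in each clone minus the mean of the other 5 clones (y axis) for each promoter (points, sorted within a clone) in the low, intermediate and high level classes; black lines are medians. In the high class all points of clones L and T lie below 0, and the lowest point of clone L is Klf8.

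Promoters on the X chromosome were few: Gata1, Sox3, Klf8 and both of Tbx22. Clone L was the lowest clone at 4 of these 5 and at 25 of the 51 autosomal ones. The median range was 0.170 for the 5 and 0.0746 for the 51. None of the 5 was in the low class, whereas 10 of the 51 were. Among the family promoters the median range was 0.0401 in the low class and 0.141 in the intermediate class. The part of level class in the difference of ranges was not tested. Klf8 was at 0.850 in E, 0.792 in T, 0.841 in I, 0.815 in K, 0.681 in L and 0.821 in P. Its level in clone L was thus 0.140 below the median of the other clones.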

How the data were processed

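Genomic DNA of 4T1 clones was bisulfite converted and sequenced as 76 nt paired-end reads, per the labels' protocols. The authors deposited promoter methylation as a fraction, 1 per clone and promoter, with no counts, so no interval from depth is given. Per the submitters' processing notes, bedtools, DESeq and mm10 were used. For the aligner, the promoter limits and the merging of the 2 rounds, nothing was stated in the labels or headers. The table of hypomethylated regions and the parental line were not used here. Rows with equal gene and levels (145 of 22110) were counted once, leaving 21965 promoters; no family promoter had levels equal to those of another gene. The group comparison used R 4.3.3 and limma 3.58.1 (moderated with a mean trend, Benjamini-Hochberg adjustment over all promoters, 2 against 4 clones). Nothing ties the rounds to separate cultures, and p-values measure only the spread between clones. Python 3.11.15 and pandas 2.3.3 were used for the rest.

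The members and gene lists were chosen with earlier results of these data known. Values per clone were given by rule for the 3 highest, 3 lowest and 3 most variable promoters of each family, for promoters called or separated by a gap of at least 0.1, and for those where 1 clone lay 0.2 or more from the others' median. Klf3, Sox15 and Sox6, and the largest difference of each family, were added after their values were seen. For genes with several RefSeq windows the one at the gene's outer start was printed. Alternatives were logit (bounds 0.01 and 0.99) and arcsine scales, no mean trend, centring on clone medians, a range filter, all deposited rows, an adjusted p under 0.10, other thresholds, and each clone left out.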

Additional observations from a re-analysis of the deposited data

Results flagged for a closer look

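Among the 4 non-intravasating clones, clone L stood apart from the other 3 at 4 promoters, by Dixon's criterion for a value far from the rest of its group. The criterion was applied to 30 promoters and 4 family means. The 30 had been picked from these same values by their level or their spread between clones. Chance flags about 1 in 20 groups that were not so picked, so that rate need not hold here. The Gata6 promoter was at 0.864 in clone L, where the nearest of the other 3 was at 0.922. The X-linked Klf8 promoter was at 0.681 in clone L, where the nearest was at 0.815. The promoters of Tbx3 were at 0.878 in clone L, with the nearest clone at 0.913, and at 0.883, with the nearest at 0.916. The Tbx3 promoters had nearly equal levels in every clone, so they count as 1 observation. In each case clone L was the low one, and all 4 promoters belong to the high class, in which clone L was also low over the whole table.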

How the results depend on the processing

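None of the 56 family promoters was called by limma under any alternative run, the smallest adjusted p being 0.597 (without clone L). In the fits that kept both E and T, those with an unadjusted p under 0.05 numbered 0 or 1. Sox12 was that promoter on the arcsine scale (limma unadjusted p = 0.0406) and after centring (limma unadjusted p = 0.0364). It was so too with the range filter (limma unadjusted p = 0.0117) and without clone P (limma unadjusted p = 0.0315). In the other fits that kept both E and T, the limma unadjusted p of Sox12 was 0.0678 to 0.153. Without clone I, and likewise without clone L, 1 family promoter other than Sox12 had a limma unadjusted p under 0.05. Over all promoters limma called 2, and 0 without the mean trend (943 with an unadjusted p under 0.05), 5 after centring, 25 (11 higher, 14 lower) when only ranges from 0.1 upward were tested, and 0 to 4 when a clone was left out (0 without clone L, 1691 with an unadjusted p under 0.05). When E or T was the clone left out, the lone intravasating clone was assumed to vary like the others. Family promoters separated by a gap of at least 0.1 numbered 0 at every gap and after centring, and 0 to 1 when a clone was left out (Sox12, without clone E). The difference of Gata2 ran from -0.111 to 0.010 over the clones left out. The median level became 0.658 for Sox and 0.653 for Tbx when the promoters of a gene were averaged first. Promoters with a range of at least 0.2 numbered 4 without clone L. No paired analysis was possible because the 2 rounds of each clone share 1 column. Without counts, coverage minimums could not be set and the precision of a single level is unknown.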
